A study of Arabidopsis thaliana with 9 samples.

Results

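The genes LBD37 (AT5G67420), LBD38 (AT3G49940) and LBD39 (AT4G37540) of Arabidopsis thaliana were followed across 9 RNA-sequencing libraries. They were chosen by name, from their known place in nitrogen signalling and with earlier results of these data known. They are 3 of the 32678 genes in the count tables and 3 of the 6 class II members of the LATERAL ORGAN BOUNDARIES DOMAIN (LBD) family. Seedlings were 7 days old, grown in liquid culture with 2.5 mM ammonium succinate as the nitrogen supply, and were given a potassium salt at 10 mM for 15 min. The 3 groups had 3 libraries each: icpk with KNO3, wild type with KNO3 and wild type with KCl. In icpk the calcium-dependent protein kinase genes CPK10, CPK30 and CPK32 are mutated and a CPK10 with the change M141G is expressed, which the compound 3MBiP can inhibit. The protocols describe 10 µM of that compound for 2 min before the salt, but the labels do not say which libraries received it, and no icpk library with KCl was analysed here. A difference between icpk and wild type with KNO3 therefore cannot be told apart from one present before nitrate or one made by the inhibitor. The sources used here name neither the promoter of the engineered kinase nor the number of plant lines. About 10 seedlings were pooled per library, and no label states that the 3 libraries of a group were grown apart, so p-values measure only the spread between these libraries, which may be technical.

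LBD proteins are plant transcription factors that bind DNA through an amino-terminal LOB domain with a conserved cysteine motif. Most class I members act in organ boundaries, lateral roots and leaf shape, whereas class II members are linked to metabolism. LBD37, LBD38 and LBD39 are induced by nitrate and other nitrogen sources, and they repress anthocyanin synthesis genes and genes of nitrate uptake and assimilation. Nitrate itself is read at the start of this response by NIN-like proteins (NLPs), transcription factors that CPK10, CPK30 and CPK32 phosphorylate when nitrate raises calcium.

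In the RefSeq annotation of assembly TAIR10.1, LBD37 lies at chr5:26903866-26906524 on the minus strand, LBD38 at chr3:18514266-18516131 on the plus strand and LBD39 at chr4:17639393-17640925 on the minus strand. The files are named for TAIR10 and hold no coordinates. Each gene has 2 coding exons, and LBD37 has 2 annotated transcripts that share their coding parts and differ in the untranslated parts at both ends. The annotated proteins have 250 residues (LBD37), 247 residues (LBD38) and 240 residues (LBD39), and the cysteine motif stood at residues 3 to 17 in all 3. LBD37 and LBD38 were the closest pair, with 81% identical aligned residues, against 63.3% for LBD37 and LBD39 and 65.9% for LBD38 and LBD39. Over the first 100 residues, which hold the LOB domain, these identities were 92%, 87% and 89%. Identity with the other class II proteins, LBD40, LBD41 and LBD42, was 39.1% to 49.2% over the aligned length. No other annotated gene overlapped the 3 genes, and none of their 50-base windows (2474 in LBD37, 1674 in LBD38 and 1297 in LBD39) occurred elsewhere in the genome.

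The 300 bases before each annotated gene start are shown because the 3 genes moved together within 15 min of nitrate. The sequences are from RefSeq, assembly TAIR10.1, read 5′ to 3′ on the strand of the gene, and capitals mark the GARP motif GAATC on either strand, which NIGT1 repressors of nitrate genes can bind. They come from chr5:26906525-26906824 (minus strand) for LBD37, chr3:18513966-18514265 (plus strand) for LBD38 and chr4:17640926-17641225 (minus strand) for LBD39.
LBD37: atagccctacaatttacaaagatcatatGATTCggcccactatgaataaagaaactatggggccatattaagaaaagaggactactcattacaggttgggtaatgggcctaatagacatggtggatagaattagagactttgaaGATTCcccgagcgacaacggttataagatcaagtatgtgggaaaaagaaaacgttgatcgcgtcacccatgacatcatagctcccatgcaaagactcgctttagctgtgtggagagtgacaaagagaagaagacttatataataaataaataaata
LBD38: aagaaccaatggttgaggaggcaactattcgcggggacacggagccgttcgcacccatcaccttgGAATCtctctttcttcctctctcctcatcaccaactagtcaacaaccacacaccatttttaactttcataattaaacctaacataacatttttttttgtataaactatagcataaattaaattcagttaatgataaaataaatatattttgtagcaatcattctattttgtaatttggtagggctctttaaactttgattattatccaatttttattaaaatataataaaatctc
LBD39: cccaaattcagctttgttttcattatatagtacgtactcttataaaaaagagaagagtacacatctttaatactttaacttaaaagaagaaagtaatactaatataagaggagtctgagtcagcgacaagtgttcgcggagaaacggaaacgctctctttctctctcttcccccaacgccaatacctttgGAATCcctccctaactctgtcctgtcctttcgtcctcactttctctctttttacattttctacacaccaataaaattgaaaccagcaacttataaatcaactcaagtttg
GAATC occurred at 2 places in LBD37 and at 1 place each in LBD38 and LBD39, and 45% of the 27443 promoters of this length held it. The first arm of the nitrate-responsive element, the site NLPs bind, was searched as TGNCNNTT on both strands. It occurred from -190 to -183 in LBD37 and from -88 to -81 in LBD39, counted from the gene start, and not in LBD38; 48.6% of promoters held it. No match shared bases with a match of another motif. The complete element was found in none of the 3 windows, nor in the 1000 bases before each start, where 4.01% of genes have it (1.3% in 300 bases). TGACG, which the nitrate-linked TGA factors bind, occurred once, in LBD37 from -96 to -92 (21.3% of promoters). GCGGCG, a motif bound by LBD proteins, occurred in none of the 3 (1.97% of promoters). These are matches of letters in a window of set length, and binding was not measured.

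**Figure D1:**
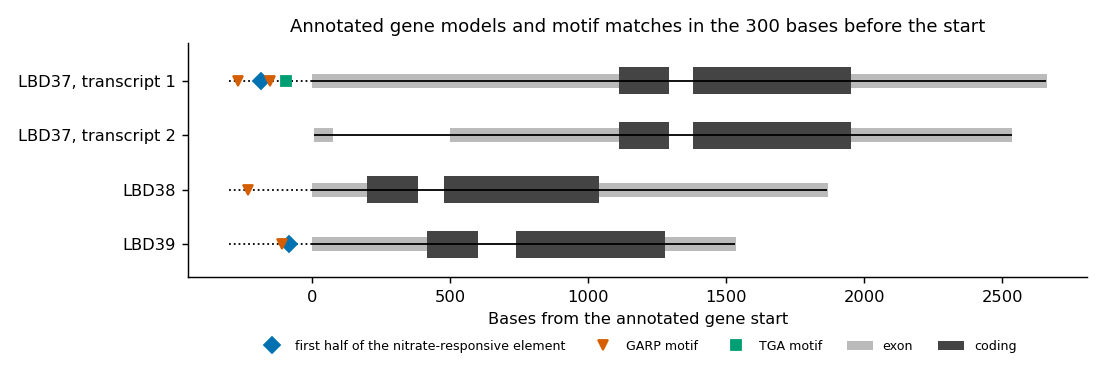
Annotated gene models of LBD37 (2 transcripts), LBD38 and LBD39, drawn in bases from the gene start, with exons in light and coding parts in dark grey. Symbols mark the motif matches in the 300 bases before the start, of which LBD37 had 2 GARP matches and LBD38 and LBD39 had 1 each.

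Gene counts per library ranged from 5987352 to 19564785. Levels are CPM, reads of a gene per 1000000 counted reads, with library sizes scaled by trimmed mean of M-values. Between 23.8% and 80.5% of the records of a library aligned at more than 1 place, the highest share being that of wild type KCl replicate 3. The kinase genes were checked first: CPK30 had 3.39 ± 0.484 CPM in icpk with KNO3, 27.5 ± 1.11 in wild type with KNO3 and 25.3 ± 2.56 in wild type with KCl (SD, n = 3 each), and CPK32 had 21.3 ± 3.34, 206 ± 6.86 and 202 ± 65.9 CPM in the same order. CPK10, whose reads come from the mutated gene and the engineered copy together, had 160 ± 9.52 CPM in icpk with KNO3, 90.1 ± 9.79 in wild type with KNO3 and 70.7 ± 8.30 in wild type with KCl. The seedlings are mixtures of root and shoot cells, and none of 12 root and 11 shoot marker genes was at 0 counts in a group. In such bulk samples, fewer cells of a type and less RNA per cell cannot be told apart.

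With KNO3 all 3 genes were several times higher in wild type than with KCl, and LBD39, the least abundant, had the largest fold change. LBD37 had 637, 642 and 754 CPM in the wild type KNO3 libraries, against 82.0, 102 and 121 CPM in the wild type KCl libraries, in the order of replicates 1 to 3. LBD38 had 461, 480 and 441 CPM with KNO3, against 98.3, 81.1 and 111 CPM with KCl. LBD39 had 114, 121 and 106 CPM with KNO3, against 12.3, 9.75 and 14.8 CPM with KCl. Every KNO3 library was thus above every KCl library for each gene; the groups did not overlap for 26.4% of genes tested. By edgeR's quasi-likelihood test with Benjamini-Hochberg adjustment over the 20288 genes tested, the log2 fold change (KNO3 over KCl) was 2.74 ± 0.17 (SE) for LBD37 (adjusted p = 3.44e-06), 2.25 ± 0.13 for LBD38 (adjusted p = 2.87e-06) and 3.24 ± 0.14 for LBD39 (adjusted p = 2.99e-07). These are rises of 6.69-fold, 4.77-fold and 9.47-fold. All 3 were thus called higher at an adjusted p below 0.05, where 3.56% of the genes tested were (2.39% were called lower), and 0.68% were called higher with a log2 fold change of 2 or more. Among all fold changes, LBD39 ranked 42, LBD37 ranked 74 and LBD38 ranked 116 of 20288. Without wild type KCl replicate 3, the library with most records aligned at several places, the log2 fold changes were 2.89, 2.37 and 3.37 for LBD37, LBD38 and LBD39.

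**Figure D2:**
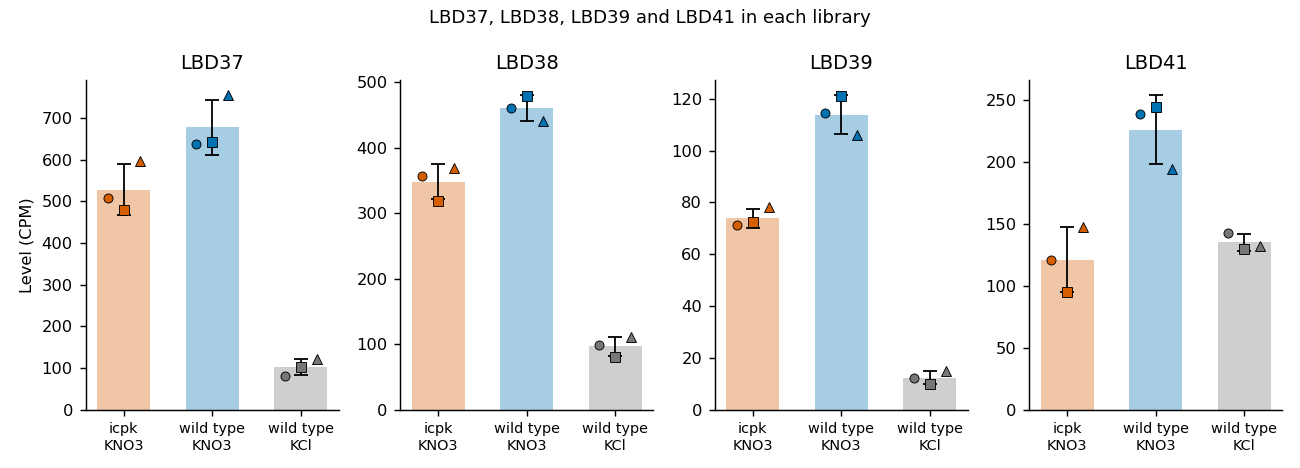
Level in CPM of LBD37, LBD38, LBD39 and the related LBD41 in icpk with KNO3, wild type with KNO3 and wild type with KCl. Points are libraries (circle, square and triangle for replicates 1, 2 and 3), bars are means and whiskers are SD (n = 3); LBD37, LBD38 and LBD39 were lowest with KCl and intermediate in icpk, while the icpk libraries of LBD41 overlapped those with KCl.

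In icpk with KNO3 the 3 genes were at 64.9% to 77.9% of their wild type level with KNO3, and LBD38 and LBD39 passed the test. LBD37 had 509, 479 and 596 CPM in icpk, against 637, 642 and 754 CPM in wild type. Its log2 fold change (icpk over wild type) was -0.36 ± 0.15, with an unadjusted p of 0.0413 and an adjusted p of 0.12 in edgeR's test. The highest icpk library was below the lowest wild type library, but the adjusted p missed the threshold, also with the replicate number as a block (adjusted p = 0.0552). LBD38 had 358, 319 and 369 CPM in icpk, against 461, 480 and 441 CPM in wild type. It fell by 0.40 ± 0.13 on the log2 scale (adjusted p = 0.0423, edgeR), to 75.6% of wild type. The groups did not overlap for LBD38, yet its call was lost when any library was left out other than wild type KCl replicate 2 or 3 (adjusted p 0.0322 to 0.125 over the 9 libraries left out in turn) and with limma voom (adjusted p = 0.0584). LBD39 had 71.1, 72.4 and 78.0 CPM in icpk, against 114, 121 and 106 CPM in wild type. It fell by 0.62 ± 0.12 on the log2 scale (adjusted p = 0.00575, edgeR), and this call held with each library left out in turn (adjusted p 0.00354 to 0.0251). LBD39 is thus the gene of the 3 whose lower level in icpk was best separated from the spread between libraries. In all, 2 of the 3 were called lower in icpk, where 11.4% of genes tested were (11.3% were called higher), and none of the 3 overlapped between the groups, which held for 39.6% of genes tested. In the authors' deposited table the log2 fold changes of this comparison were -0.35 (adjusted p = 0.047), -0.40 (adjusted p = 0.00355) and -0.62 (adjusted p = 4.05e-07) for LBD37, LBD38 and LBD39, so LBD37 passed the threshold there and not here. The deposited table lists LBD42 with a base mean of 0.0624 although all 9 count tables hold 0 for it, so its values may come from other counts and are not a second test of the same ones.

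Marker genes of the shoot lay on 1 side of 0 between the salts in wild type and between the genotypes with KNO3. Between icpk and the KCl libraries they did not: 3 of the 11 had a log2 fold change below 0 and 8 above. The median there was 0.07, and edgeR called none. With KNO3 in wild type, all 11 shoot markers had a log2 fold change below 0, with a median of -0.54. Of these, 1 was called lower by edgeR (CAB3, adjusted p = 0.0361), beside 2.39% of all genes tested, 5 by DESeq2 and 2 by limma voom. The CAB3 call was lost without any 1 library of KCl or without wild type KNO3 replicate 1 or 3 or icpk replicate 1 (adjusted p 0.0556 to 0.127). In icpk against wild type with KNO3, all 11 shoot markers had a log2 fold change above 0, with a median of 0.53. Of them, edgeR called 3 higher, beside 11.3% of all genes tested, DESeq2 9 and limma voom 6. In the fit of the 6 libraries of the comparison alone, 1 was called. With single libraries left out the count was 1 to 7. It was 1 without wild type KNO3 replicate 1 or 3 or icpk replicate 1 or 3. Their summed level was 29162 to 42283 CPM in icpk, 18928 to 29533 CPM in wild type with KNO3 and 31870 to 37292 CPM in wild type with KCl. The summed level of 12 root markers was 3163 to 3963 CPM in icpk, 2574 to 3592 CPM in wild type with KNO3 and 3812 to 4415 CPM in wild type with KCl. Most of that sum was PYK10, a beta-glucosidase of roots, with 3295 ± 384 CPM in icpk, 2620 ± 568 CPM in wild type with KNO3 and 3809 ± 294 CPM in wild type with KCl (SD, n = 3 each). Of the 12 root markers, 10 had a log2 fold change below 0 in icpk, with a median of -0.16. None was higher at an unadjusted p under 0.05 in edgeR's test, and DESeq2 and limma voom called 0 higher. In edgeR's test 2 were called lower and 0 higher, beside 11.4% and 11.3% of all genes tested, which is near the background. Of these, PLT1 lost its call without wild type KNO3 replicate 1 or 3 or icpk replicate 1 or 2 (adjusted p 0.0557 to 0.0755), and EXPA7 without any single library other than wild type KNO3 replicate 2 or icpk replicate 2 (0.0532 to 0.148). With KNO3, 8 of the 12 were above 0, with a median of 0.13. None was called by edgeR, beside 3.56% higher and 2.39% lower over all genes tested. There was 1 in each direction at an unadjusted p under 0.05, 1 in each direction by DESeq2 and none by limma voom. The part of these markers in the LBD levels was not tested in any comparison.

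The 3 genes were still well above the KCl level in icpk. Set against wild type with KCl, icpk with KNO3 was higher by a log2 fold change of 2.38 ± 0.16 for LBD37 (adjusted p = 1.4e-05), 1.85 ± 0.13 for LBD38 (adjusted p = 1.65e-05) and 2.62 ± 0.13 for LBD39 (adjusted p = 2.73e-06), by edgeR's test. All 3 were called higher, where 3.15% of genes tested were, and none overlapped between the groups, which held for 27.7%. Genotype and salt both differ between these groups, and the comparisons share libraries. On the CPM scale, the distance of icpk from wild type with KCl was 74.0% of the distance of wild type with KNO3 from wild type with KCl for LBD37, 69.2% for LBD38 and 60.6% for LBD39. On the log2 scale the same shares were 86.9% for LBD37, 82.1% for LBD38 and 80.8% for LBD39.

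**Figure D3:**
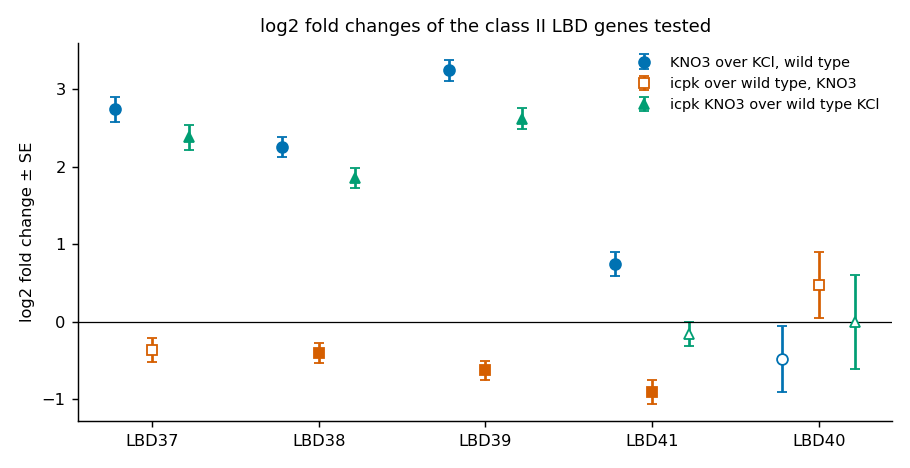
log2 fold change ± SE of the 5 class II LBD genes that were tested, in 3 comparisons; filled symbols passed an adjusted p of 0.05 in edgeR's test and open symbols did not. LBD37, LBD38 and LBD39 were 1.85 or more above wild type KCl in icpk with KNO3, and LBD41 was not.

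Scaled by length, LBD39 stood below LBD37 and LBD38. Per kilobase of annotated exon, LBD37 had 205 ± 23.6 CPM in icpk with KNO3, 263 ± 25.8 in wild type with KNO3 and 39.5 ± 7.51 in wild type with KCl. LBD38 had 197 ± 14.8, 260 ± 10.8 and 54.6 ± 8.43 CPM per kilobase in the same groups. LBD39 had 52.9 ± 2.65, 81.6 ± 5.32 and 8.81 ± 1.83 CPM per kilobase, below both others in every group by more than the SD. On this scale LBD37 and LBD38 differed by less than their SD in both KNO3 groups, which does not hold per kilobase of coding sequence. In wild type with KCl their order depends on the length used. Per kilobase of coding sequence alone, LBD37 had 701 CPM in icpk with KNO3, 900 in wild type with KNO3 and 135 in wild type with KCl, LBD38 had 468, 619 and 130, and LBD39 had 102, 157 and 17.0. LBD37 has long annotated untranslated parts, with 2572 bases of exon against 753 coding bases, while LBD38 has 1772 and 744 and LBD39 has 1395 and 723.

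The balance between the 3 genes was followed within each library as the difference of their log2 CPM, which holds each gene's length constant. LBD38 minus LBD39 was 2.02 ± 0.034 in wild type with KNO3, against 2.97 ± 0.076 in wild type with KCl (SD, n = 3 each). The groups did not overlap, and the log2 fold change of LBD39 with KNO3 exceeded that of LBD38 by 0.95 (exact permutation test, two-sided, p = 0.1, the smallest that 3 against 3 libraries allow; 0.2 adjusted over 6 differences tested). LBD37 minus LBD38 was 0.55 ± 0.19 with KNO3, against 0.07 ± 0.30 with KCl, again with no overlap (exact p = 0.1, adjusted 0.2). LBD37 minus LBD39 was 2.57 ± 0.23 with KNO3, against 3.04 ± 0.33 with KCl, with overlap (exact p = 0.2, adjusted 0.24). In the KCl libraries LBD38 and LBD39 were both lowest in replicate 2 and LBD37 was lowest in replicate 1: wild type KCl replicate 1 held less LBD37 than LBD38 (-0.26), and KCl replicate 2 held more (0.34). Between icpk and wild type with KNO3, LBD38 minus LBD39 was 2.24 ± 0.095 in icpk, against 2.02 ± 0.034 in wild type, with no overlap (difference 0.22, exact p = 0.1, adjusted 0.2). For the pairs with LBD37 the groups overlapped, with differences of 0.04 (LBD37 minus LBD38, exact p = 0.7) and 0.26 (LBD37 minus LBD39, exact p = 0.2). No difference between genes could pass a threshold of 0.05 in this design.

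**Figure D4:**
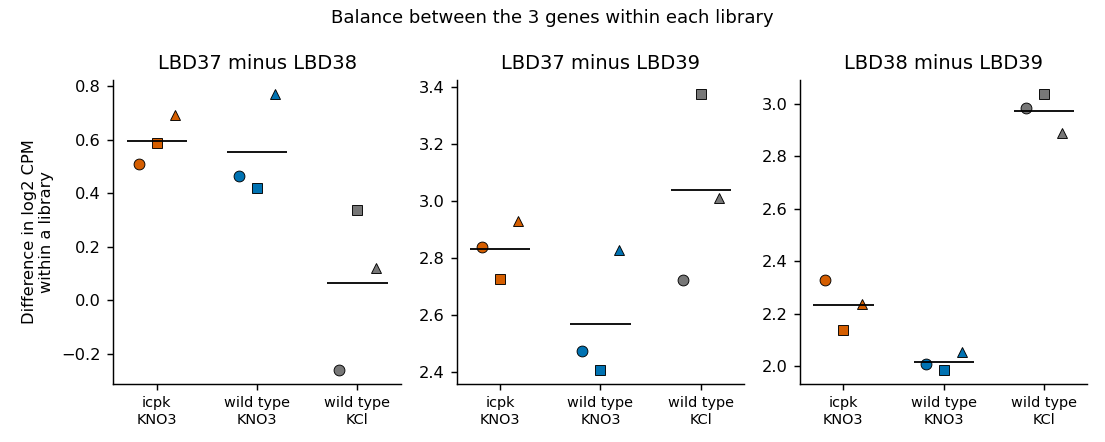
Difference in log2 CPM between 2 genes within each library, for icpk with KNO3, wild type with KNO3 and wild type with KCl; points are libraries (circle, square and triangle for replicates 1, 2 and 3) and lines are group means. LBD38 minus LBD39 averaged 2.24 in icpk, 2.02 in wild type with KNO3 and 2.97 in wild type with KCl, with no overlap between groups.

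Of the other class II genes, LBD41 was lower in icpk than in wild type with KNO3, and the other two gave few or no reads. LBD41, which is known for its induction by low oxygen, had 121, 95.0 and 148 CPM in icpk with KNO3, 239, 245 and 194 CPM in wild type with KNO3 and 143, 130 and 133 CPM in wild type with KCl. It rose with KNO3 by 0.74 ± 0.16 on the log2 scale (adjusted p = 0.0191, edgeR), a call lost without wild type KCl replicate 2 (adjusted p = 0.0833) or 3 (0.0616) or wild type KNO3 replicate 1 (0.0806). It fell by 0.90 ± 0.16 in icpk relative to wild type with KNO3 (adjusted p = 0.0037). In icpk with KNO3 it differed from wild type with KCl by a log2 fold change of -0.16 (adjusted p = 0.603), where LBD37, LBD38 and LBD39 were 1.85 to 2.62 higher. LBD40 was scarce, with 2.46 ± 1.13 CPM in icpk with KNO3, 1.71 ± 0.81 in wild type with KNO3 and 2.33 ± 0.55 in wild type with KCl, and was not called (adjusted p = 0.583 with KNO3 and 0.456 in icpk). LBD42 had 0 counts in all 9 libraries, which allows up to 0.0669 CPM in icpk with KNO3, 0.0624 CPM in wild type with KNO3 and 0.0732 CPM in wild type with KCl (3 counts over each group, counting error only). LBD42 overlaps BBX14 on the opposite strand by 329 bases, and the kit does not mark strand. Reads from that stretch may not have been counted for LBD42, so these limits hold for counted reads only.

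Within the family, the calls with KNO3 were all in class II. Of 41 genes named LOB or LBD with a number, 20 were tested, and the 4 called higher with KNO3, beside 3.56% of all genes tested, were LBD37, LBD38, LBD39 and LBD41. None of the 15 class I genes tested was called in either direction with KNO3, and none had an unadjusted p under 0.05 in edgeR's test; DESeq2 and limma voom called none either. With 3.56% of all genes tested called higher and 2.39% lower, a count of 0 among 15 is near the background. The class I genes were also scarce, with means in wild type with KNO3 of 0.403 CPM (LBD26) to 13.1 CPM (LBD13). The 4 called class II genes had 114 CPM (LBD39) to 678 CPM (LBD37) there. The part of level in the calls was not tested. In icpk, 1 of these 15 was called higher (LBD21, log2 fold change 0.59 ± 0.19, adjusted p = 0.046) and 1 lower (ASL1, also LBD36, -0.65 ± 0.18, adjusted p = 0.0291), beside 11.3% higher and 11.4% lower over all genes tested. The LBD21 call was lost with the replicate block (adjusted p = 0.0626), and without any single library other than wild type KCl replicate 2 or wild type KNO3 replicate 2 (up to 0.138). The ASL1 call was lost without wild type KNO3 replicate 1 (0.0636) or 3 (0.104) or icpk replicate 1 (0.0782) or 3 (0.0729).

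Among the genes these repressors are known to act on, most of those of nitrate uptake and reduction were called higher with KNO3 and lower in icpk. Of 10 listed, 9 were called higher with KNO3 and 0 lower, beside 3.56% higher and 2.39% lower over all genes tested. None was lower at an unadjusted p under 0.05 in edgeR's test, and DESeq2 and limma voom called 0 lower. The median log2 fold change was 3.00, beside -0.02 over all genes tested. This list and the other gene lists were chosen with earlier results of these data known. UPM1, which makes the siroheme precursor for nitrite reductase, rose by 3.20 ± 0.12 (adjusted p = 1.93e-07), NRT3.1, the partner of NRT2 transporters, by 2.94 ± 0.12 (2.51e-07), NRT2.1, a high-affinity nitrate transporter, by 3.51 ± 0.19 (1.46e-06) and NIR1, nitrite reductase, by 3.24 ± 0.18 (1.46e-06). In icpk, 9 of the 10 were called lower than in wild type with KNO3, where 11.4% of all genes tested were. Their median was -0.80, beside 0.01 over all genes. NRT2.2, another transporter, had 0.781 ± 0.505 CPM in icpk against 10.5 ± 4.14 CPM in wild type, and NRT2.4 had 7.63 ± 2.54 CPM in icpk against 34.4 ± 16.9 CPM in wild type. The log2 fold change in icpk was -0.86 ± 0.11 for NRT3.1 (adjusted p = 0.000952) and -0.72 ± 0.11 for UPM1 (adjusted p = 0.00186).

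Of the anthocyanin genes, the other known targets, few passed the test with KNO3 and more were called lower in icpk. Of the 10 enzyme and transport genes of the pathway listed, edgeR called none with KNO3. Over all genes tested, 3.56% were called higher and 2.39% lower. At an unadjusted p under 0.05 in edgeR's test, 5 were higher and none lower, and DESeq2 called 2 higher and limma voom 0. The median log2 fold change was 0.40. Of 8 regulators tested, only PAP2, a MYB activator of the pathway, was called higher with KNO3, by 1.40 ± 0.27 (adjusted p = 0.0117; 0.0612 without wild type KCl replicate 1). PAP1, its close relative, had 1.08 ± 0.275 CPM in icpk, 2.22 ± 1.21 in wild type with KNO3 and 2.02 ± 0.715 in wild type with KCl, and was not called in either comparison. In icpk, 4 of the 10 enzyme and transport genes were called lower (7 by DESeq2) and 0 higher, beside 11.4% and 11.3% of all genes tested. None was higher at an unadjusted p under 0.05 in edgeR's test, and DESeq2 and limma voom called 0 higher. Their median was -0.91. The log2 fold changes were -1.23 ± 0.18 for TT19, a glutathione transferase that carries anthocyanin (adjusted p = 0.00176), -1.58 ± 0.27 for DFR, dihydroflavonol reductase (0.00332), -1.33 ± 0.33 for LDOX, anthocyanidin synthase (0.0177) and -1.16 ± 0.33 for 5MAT, a malonyltransferase (0.0312). The LDOX call was lost without icpk replicate 1 (0.0506), and that of 5MAT without wild type KNO3 replicate 2 (0.0946) or icpk replicate 1 (0.0858) or 3 (0.0894). PAP2 had 1.16 ± 0.442 CPM in icpk against 9.60 ± 2.49 CPM in wild type with KNO3 (fell by 3.09 ± 0.30, adjusted p = 0.000356), and TT8, a bHLH activator, fell by 1.32 ± 0.21 (0.00255). MYBL2, a repressor of the pathway, rose by 0.87 ± 0.25 in icpk (0.0313), a call lost without wild type KNO3 replicate 2 (0.0704) or 3 (0.0986) or icpk replicate 3 (0.12). MYB113 and MYB114 had 9 and 1 counts over all libraries and were not tested.

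**Figure D5:**
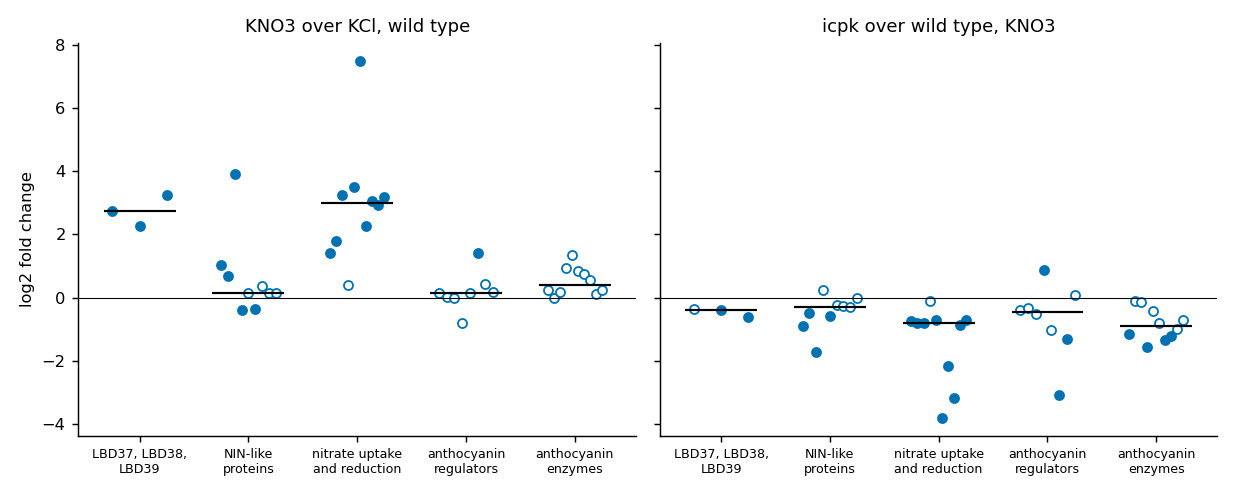
log2 fold change of the tested genes of 5 lists for KNO3 over KCl in wild type (left) and icpk over wild type with KNO3 (right). Filled points passed an adjusted p of 0.05 in edgeR's test, open points did not, and lines are list medians, which for nitrate uptake and reduction were 3.00 and -0.80 and for anthocyanin enzymes 0.40 and -0.91.

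The NLP genes, whose products act upstream of this response, were mixed. Of 9 tested, 3 were called higher and 2 lower with KNO3, beside 3.56% and 2.39% of all genes tested. Their median log2 fold change was 0.16. The 2 called lower, NLP4 and NLP6, were both lost in the fit of the 6 libraries of the comparison alone and without any of wild type KCl replicate 2 or 3 or wild type KNO3 replicate 1 or 3. NLP3 had 68.7 ± 14.0 CPM in wild type with KNO3 against 4.65 ± 1.15 CPM in wild type with KCl, a rise of 3.92 ± 0.24 (adjusted p = 4.08e-06). NLP1 rose by 1.03 ± 0.11 (adjusted p = 0.00019) and NLP2 by 0.68 ± 0.10 (0.00307). NLP4 fell by 0.41 ± 0.09 with KNO3 (adjusted p = 0.0263; 0.0857 to 0.093 without those libraries). The log2 fold change of NLP6 was -0.35 ± 0.08 (adjusted p = 0.0322; 0.079 to 0.135 without them, and 0.0598 without wild type KCl replicate 1). In icpk, 4 of the 9 were called lower and 0 higher, beside 11.4% and 11.3% of all genes tested, with a median of -0.30. At an unadjusted p under 0.05 in edgeR's test 1 was higher, and DESeq2 and limma voom called 0 higher. The log2 fold change was -1.73 ± 0.21 for NLP3 (adjusted p = 0.000848), -0.89 ± 0.10 for NLP1 (0.000801), -0.59 ± 0.11 for NLP5 (0.0047) and -0.49 ± 0.10 for NLP2 (0.00848). NLP7, the best known nitrate sensor among them, had 87.7 ± 6.92 CPM in icpk with KNO3, 106 ± 12.6 in wild type with KNO3 and 81.9 ± 2.05 in wild type with KCl, and was not called.

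The genes most like each LBD gene were taken by Pearson correlation of log2 CPM over the 9 libraries, among 18078 genes with a mean of at least 1 log2 CPM. The libraries fall into 3 groups, so a coefficient mainly follows the 3 group levels and is given as a description. LBD38 and LBD39 were each other's first gene (r = 0.9988). The others nearest LBD38 were NRT2.1 (0.995), AT5G62900 (0.9937), PPCK1, a kinase of phosphoenolpyruvate carboxylase (0.9922), and AT4G25835 (0.9919). The others nearest LBD39 were NRT2.1 (0.997), AT5G62900 (0.996), AT2G48080 (0.9943) and NRT3.1 (0.9928). Those nearest LBD37 were IPT3, a cytokinin synthesis gene (0.9933), MAPKKK14, a protein kinase gene (0.99), NIR1 (0.9899), UPM1 (0.9891) and AT2G48080 (0.9891), the last of which is shared with LBD39. For LBD37, LBD38 was at rank 8 (0.9871) and LBD39 at rank 9. IPT3 had 19.8 ± 4.51 CPM in icpk with KNO3, 22.7 ± 5.21 in wild type with KNO3 and 2.58 ± 0.473 in wild type with KCl, so that, as for LBD37, its icpk level was not called lower (log2 fold change -0.20 ± 0.20, adjusted p = 0.506).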

How the data were processed

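RNA from whole seedlings was sequenced in 9 libraries, from a kit that does not mark strand, for 50 cycles per the labels' protocols. The authors deposited raw counts per gene for each library, whole numbers with no normalization, made with TopHat and HTSeq on TAIR10 per the submitters' processing notes; the sources used here give no versions, annotation release or strand setting. In 2 further deposited tables the authors gave their comparisons, which per the file headers hold a base mean signal, a log2 fold change and its standard error, a test score, and p-values, in the column names of DESeq2. Those deposited tables are quoted only where named.

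Summary rows that name no gene, 26.7% to 84.3% of a library's records, were left out. Genes were filtered with filterByExpr (minimum count 10), leaving 20288, and scaled by TMM. The test was edgeR's quasi-likelihood test (edgeR 4.0.16, R 4.3.3) on all 9 libraries with a mean per group, adjusted by Benjamini-Hochberg over all genes tested; called means an adjusted p below 0.05. The SE of a log2 fold change is its size divided by the square root of F and is approximate. The test was checked on simulated counts. Differences between genes within a library were tested by exact two-sided permutation. Groups came from the sample titles. Same-numbered libraries of icpk and wild type with KNO3 deviated together (r = 0.123 to 0.312 over genes), so the number may pair them. For KNO3 against KCl they did not all do so (-0.0358 to 0.30). The main test and the exact permutation tests did not use the number, which entered only as an alternative, the replicate block. Alternatives were DESeq2 1.42.0, limma voom 3.58.1, other scaling, no filter, a replicate block and libraries left out.

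Symbols and sequences came from RefSeq TAIR10.1 (31912 of 32678 identifiers matched). The 3 genes and the gene lists were chosen with earlier results of these data known. Named genes were the 3 genes, the other class II genes, called class I genes and the 5 genes most alike. From each list, up to 4 called genes per comparison were named by smallest p. Named beyond that rule were the kinase genes, PAP1, MYB113, MYB114, NLP6, NLP7 and PYK10.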

Additional observations from a re-analysis of the deposited data

How the results depend on the processing

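The rises of LBD37, LBD38 and LBD39 with KNO3, and the fall of LBD39 in icpk, kept their direction and call under all 8 alternatives and with each of the 9 libraries left out. With single libraries left out, the log2 fold changes with KNO3 ranged from 2.61 to 2.89 for LBD37, 2.14 to 2.37 for LBD38 and 3.09 to 3.37 for LBD39, and LBD39 in icpk from -0.68 to -0.58. Over the 8 alternatives they ranged from 2.74 to 2.81, 2.25 to 2.402 and 3.24 to 3.42 with KNO3, and LBD39 in icpk from -0.73 to -0.62. LBD37 in icpk was not called under any of them (-0.47 to -0.28 with libraries left out). LBD38 in icpk kept its direction but lost its call with limma voom (-0.40) and with replicate 3 of every group left out (-0.49, adjusted p = 0.076), and ranged from -0.46 to -0.34 with single libraries left out. With the replicate number as a block, icpk against wild type gave -0.36 for LBD37 (adjusted p = 0.0552), -0.41 for LBD38 (0.0413) and -0.63 for LBD39 (0.0103), and no call of these 3 genes changed in any comparison. LBD37 minus LBD38 in icpk, 0.04, ranged from -0.023 to 0.15 with libraries left out, its sign turning in 3 of 6.

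Calls over all genes depended more on the libraries. With 1 left out, genes higher with KNO3 numbered 473 to 846 (722 in full), lower with KNO3 125 to 1231 (485), higher in icpk 1082 to 2348 (2286) and lower in icpk 1379 to 2209 (2313). DESeq2 called 809 genes lower with KNO3. In every group, replicate 3 was registered apart from replicates 1 and 2, and the labels do not say what a replicate number shares. Without replicate 3 of every group, 176 genes were lower with KNO3, 643 higher and 765 lower in icpk. The named genes that then missed the threshold with KNO3 in edgeR's test were PAP2 (adjusted p = 0.0682), CAB3 (0.1), NLP4 (0.162) and NLP6 (0.15). Those that missed it in icpk included NLP2 and NRT2.1 (0.0717 each), 5MAT (0.0916) and MYBL2 (0.288). Then 5 of the 10 nitrate uptake and reduction genes and 0 of the 11 shoot markers were called in icpk. The cause was not tested. Small numbers of counts limit, among others, LBD40, PAP1, 5MAT, NRT2.2, PAP2 and TT8. Summed over the icpk libraries, NRT2.2 had 32 counts, PAP2 had 49 and TT8 had 77, and NRT2.2 had 2 over the wild type KCl libraries. LBD37, LBD38 and LBD39 had 81 or more counts in every library.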

Other observations

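Beyond the listed genes, MAPKKK14 was among the genes most like LBD37. It had 165 ± 15.8 CPM in icpk with KNO3, 221 ± 19.1 in wild type with KNO3 and 21.6 ± 4.09 in wild type with KCl (SD, n = 3 each), a rise with KNO3 of 3.37 ± 0.16 on the log2 scale (adjusted p = 5.4e-07, edgeR). AT4G25835, the fifth gene nearest LBD38, had 35.9 ± 1.80 CPM in icpk with KNO3, 38.5 ± 0.947 in wild type with KNO3 and 9.67 ± 1.14 in wild type with KCl. It rose by 2.01 ± 0.11 with KNO3 (adjusted p = 1.21e-06), and its icpk level was -0.10 ± 0.10 from wild type with KNO3 (adjusted p = 0.48).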
